A study of Mus musculus with 39 samples.

Results

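The fragments described here are the DpnII restriction fragments of mouse chromosome 11 around the α-globin genes, read as interaction partners of 2 neighbouring CTCF sites, +44 and +48, which were kept apart. Members were all fragments with their midpoint between chr11:31925442 and chr11:32400255 (mm9), except those within 1 kb of either site, and numbered 1088 of the 1104 fragments of the region and of the 295448 on the chromosome. In NG Capture-C a chosen fragment, the viewpoint, is enriched from a chromosome conformation capture library, and reads count how often it was ligated to every other fragment. The 6 libraries came from erythroblasts of C57Bl6 mouse foetal livers (E12.5), expanded in culture for 6 to 7 days, depleted of Ter119+ cells, sorted for CD44 and size, and harvested after 30 h in differentiation medium with BrdU in the last hours. Of these, 3 were wild type (WT) and 3 were from DKO mice, homozygous for deletions of both MCS-R1 and MCS-R2, the major α-globin enhancers. The labels name the strain as above, whereas the study's methods describe its mutant and wild-type lines as kept on a mixed background. Both sites were read in the same 6 libraries. The labels call replicates biological but do not state whether each was a separate foetus, so that p-values measure the spread between these libraries.

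CTCF is a zinc finger protein that binds an oriented DNA motif, and cohesin, which extrudes chromatin loops, is often halted there. Pairs of CTCF sites facing each other frequently mark the ends of self-interacting chromatin domains, in which enhancers and promoters meet more often than they meet chromatin outside. At the mouse α-globin locus the enhancers lie in introns of Nprl3, a neighbouring housekeeping gene, and CTCF sites flank the enhancers and the globin genes on both sides.

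The +44 fragment, chr11:32220920-32221718 (799 bp), and the +48 fragment, chr11:32224325-32227296 (2972 bp), are both intergenic. They lie 20.05 and 23.45 kb after the end of Hbq1a, the last globin gene of the cluster, and 26.1 and 20.5 kb before the start of Sh3pxd2b, which encodes an adaptor protein of podosomes. Their centres are 4491.5 bp apart. The HS39.5 site, a CTCF site at the other end of the domain, chr11:32137178-32137424 (247 bp), overlaps a coding exon of Nprl3. The sequences were searched on both strands for a CTCF core motif, written as CCNNNAGGGGGC, CCNNNAGGTGGC, CCNNNAGATGGC or CCNNNAGAGGGC, where N is any base. The stretches with the matches in or next to the sites are shown because they tell the 2 viewpoint fragments apart, with matches in capitals and all letters from the plus strand of mm9.
CTCF +44, chr11:32221296-32221446: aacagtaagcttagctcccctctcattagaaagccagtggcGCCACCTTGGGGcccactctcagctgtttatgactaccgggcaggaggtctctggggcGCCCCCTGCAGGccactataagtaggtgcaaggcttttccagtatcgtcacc
First match after the +48 fragment, chr11:32229815-32229965: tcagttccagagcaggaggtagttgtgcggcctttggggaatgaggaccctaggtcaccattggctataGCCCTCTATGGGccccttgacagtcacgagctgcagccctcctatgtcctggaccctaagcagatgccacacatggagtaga
Last match before the HS39.5 fragment, chr11:32137006-32137035: tgcaacaggCCTTCAGATGGCagaattata
The +44 fragment held 2 matches, both on the minus strand, and 5.79% of chr11 windows of its length held at least 1. The +48 fragment held 0 (19.2% of windows of its length held a match), and the next match began 2588 bp after its end, on the minus strand. The HS39.5 fragment held 0 as well (1.80% of such windows held one), with a plus-strand match 152 bp before its start. A match describes these letters only, and nothing about binding follows from its presence or absence.

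Each library had between 29877 and 67343 reporter reads per site, of which 68.4% to 79.9% fell on chr11, and 3 reads corresponded to 6.44 to 13.5 interactions per 100000 on the chromosome. All values below are shares of, or interactions per 100000 of, the chr11 reads outside 1 kb of the 2 sites, with read counts recovered from the deposited values. Reads were listed on 1038 members, on 1035 of them from both sites, and 926 to 1013 members had a read in any 1 library from 1 site. The fragments of the HS39.5, Hba-1 and Hba-2 viewpoints, captured in the same panel, were listed at 0 from both sites in every library, as were 23 of the 29 members within 1 kb of them, so that the HS39.5 site was described through its neighbourhood. The R2 fragment in an intron of Nprl3 checked the deletion. It had 81.6, 102 and 123 interactions per 100000 from +44 in the WT libraries and 0 in all DKO libraries. The R1 fragment (1288 bp) still had 62.6, 80.4 and 70.3 in DKO against 155, 168 and 152 in WT, and the bounds of its deletion are not given in the sources used here, so that it did not check the label.

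The first question was whether the 2 sites, less than 5 kb apart, meet the globin domain equally often. They did not: +48 met the domain less often than +44 in every library. The domain was the stretch chr11:32137130-32200469 from the HS39.5 site to Hbq1a, with 159 fragments. From +44 it took 11.01%, 11.6% and 11.8% of chr11 interactions in WT and 9.28%, 9.19% and 9.57% in DKO. From +48 it took 6.92%, 8.56% and 8.33% in WT and 7.75%, 7.63% and 7.77% in DKO. The 2 sites did not overlap in either genotype, and WT replicate 1 was the lowest from +48. The log2 ratio of +48 over +44 averaged −0.54 ± 0.12 (SD, n = 3) in WT and −0.28 ± 0.02 in DKO. Over the 6 libraries it was −0.41, with 0 of 6 above 0 (two-sided exact permutation test by sign flips, p = 0.03125, the smallest that 6 libraries allow, and 0.0417 after Benjamini-Hochberg adjustment over 4 intervals). Within 1 genotype the same test cannot go below 0.25.

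The upstream flank, chr11:32073816-32137129, continues from the domain through Mpg, Rhbdf1, Snrnp25 and Il9r and was as long as the domain. From +44 it took 18.1%, 17.9% and 17.5% in WT and 13.6%, 13.4% and 12.7% in DKO. From +48 it took 16.2%, 16.6% and 16.5% in WT and 13.1%, 13.3% and 12.9% in DKO. The sites were apart in WT, with a log2 ratio of −0.12 ± 0.04 (SD, n = 3), and interleaved in DKO, with −0.01 ± 0.04. The mean ratio of −0.07 did not pass (exact permutation test, n = 6, p = 0.0938), and scaled to the reads of the region alone its direction turned, to 0.05.

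The downstream flank, chr11:32200470-32264601, contains the sites themselves and the start of Sh3pxd2b. It took 25.2%, 27.2% and 27.3% from +44 in WT and 21.5%, 24.8% and 25.7% in DKO. From +48 it took 20.7%, 22.5% and 22.2% in WT and 18.7%, 20.6% and 21.2% in DKO. Within each library +48 was lower, with a ratio of −0.29 ± 0.01 (log2, SD, n = 3) in WT and −0.25 ± 0.04 in DKO (mean −0.27, exact permutation test over n = 6, adjusted p = 0.0417), a mean that shrank to −0.12 with 5 kb left out around the sites and to −0.15 when scaled to the reads of the region. This flank joins 2 opposite parts. Between the domain and +44, +48 had a log2 ratio of −0.92 (0 of 6 libraries above 0), from mean shares of 20.5% ± 0.91 from +44 and 10.9% ± 0.77 from +48 in WT (SD, n = 3). Beyond +48, chr11:32228631-32264601, the ratio was 0.87 (6 of 6 above 0), from 5.42% ± 0.40 and 10.2% ± 0.21. Both parts lie next to the sites, so that the nearer site was the higher one in each. These 2 stretches and the far intervals below were added after the data were seen.

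**Figure D1:**
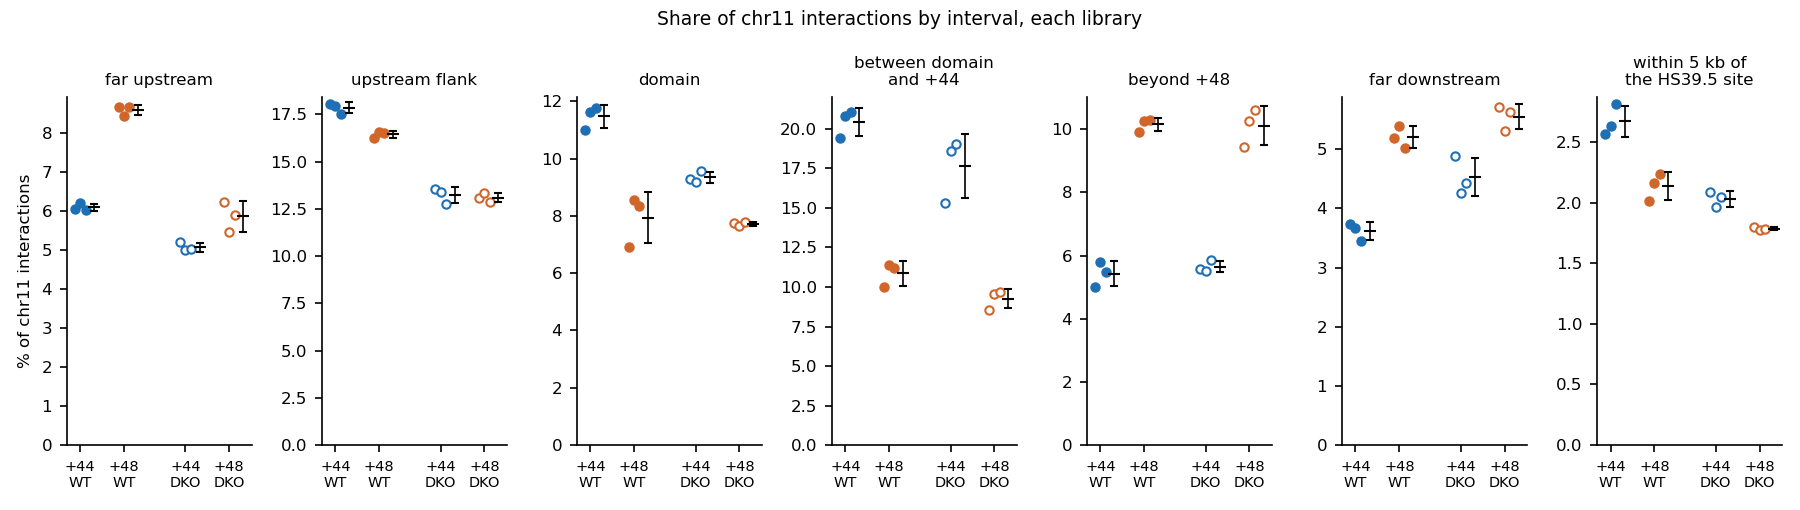
Share of chr11 interactions (%, vertical axes from 0) in 7 intervals, with blue points for +44 and orange points for +48, filled for WT and open for DKO, and a bar for the mean and SD of 3 libraries. In the domain every +44 library lies above every +48 library of its genotype, whereas far upstream the WT libraries from +48 (8.44% to 8.68%) lie above those from +44 (6.02% to 6.21%).

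The order turned far from the sites. The far upstream interval, chr11:31925442-32073815, took 6.05%, 6.21% and 6.02% of chr11 interactions from +44 in WT, against 8.67%, 8.44% and 8.68% from +48. In DKO the values were 5.21%, 5.01% and 5.02% from +44 and 6.24%, 5.46% and 5.89% from +48. All +48 values exceeded all +44 values of the same genotype, and the log2 ratio was 0.50 ± 0.05 (SD, n = 3) in WT and 0.21 ± 0.07 in DKO. The far downstream interval, chr11:32264602-32400255, with the bodies of Sh3pxd2b and Ubtd2, a ubiquitin-domain protein gene, had ratios of 0.53 ± 0.04 in WT and 0.29 ± 0.06 in DKO. In both far intervals +48 was higher in 6 of 6 libraries (mean log2 0.35 and 0.41, exact permutation test, n = 6, p = 0.03125, also after adjustment over 5 added intervals). The whole region took 51.5% to 66.6% of chr11 interactions and was lower from +48, with a log2 ratio of −0.12 (0 of 6 above 0). Higher values from +48 were not particular to the far intervals. Over the 608 bins of 2 kb tested on chr11, which include those of the region, the median log2 ratio was 0.31 in WT and 0.17 in DKO. In far upstream bins the median was 0.51 and 0.21, and in far downstream bins 0.45 and 0.35.

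The profiles of the 2 sites had the same outline. Across the 232 bins of 2 kb in the region, Spearman's rho between +44 and +48 of the same library was 0.941 to 0.968, and between replicates of 1 site it was 0.946 to 0.969, values that share the decay with distance and fragment density. In steps of 10 kb, interactions peaked beside the sites, were lowest within the domain at chr11:32155000-32184999 and peaked again in the upstream flank, over Rhbdf1, which encodes an inactive rhomboid protease. Its 3 steps had 1052, 891 and 725 interactions per 100000 from +44 and 707, 623 and 524 from +48 (WT means), against 3310 and 2349 in the step from chr11:32185000, with Hbq1b, and 3154 and 2085 in the next, with Hbq1a. The bodies of Hba-a1 and Hba-a2, listed at 0, lower the steps that hold them. The Rhbdf1 step, chr11:32115000-32124999, lay 101 kb from +44 and had 3938 interactions per 100000 from +44 and 3327 from +48 (WT means), more than the 2578 and 1932 of the step over the HS39.5 site. From +48 the 3 WT libraries were all higher in 31 of the 47 steps, where 24.1% of all 801 steps tested on chr11 were so, and all lower in 13 (8.49% over chr11). The 13 comprised all 7 steps of the domain, 4 of 6 in the upstream flank and 2 in the downstream flank next to +44. All 15 far upstream steps and 12 of 13 far downstream ones were higher from +48. In DKO the counts were 17 (21.1% over chr11) and 12 (8.74%), with the same 7 of 7 in the domain lower from +48, but only 5 of 15 far upstream steps higher.

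**Figure D2:**
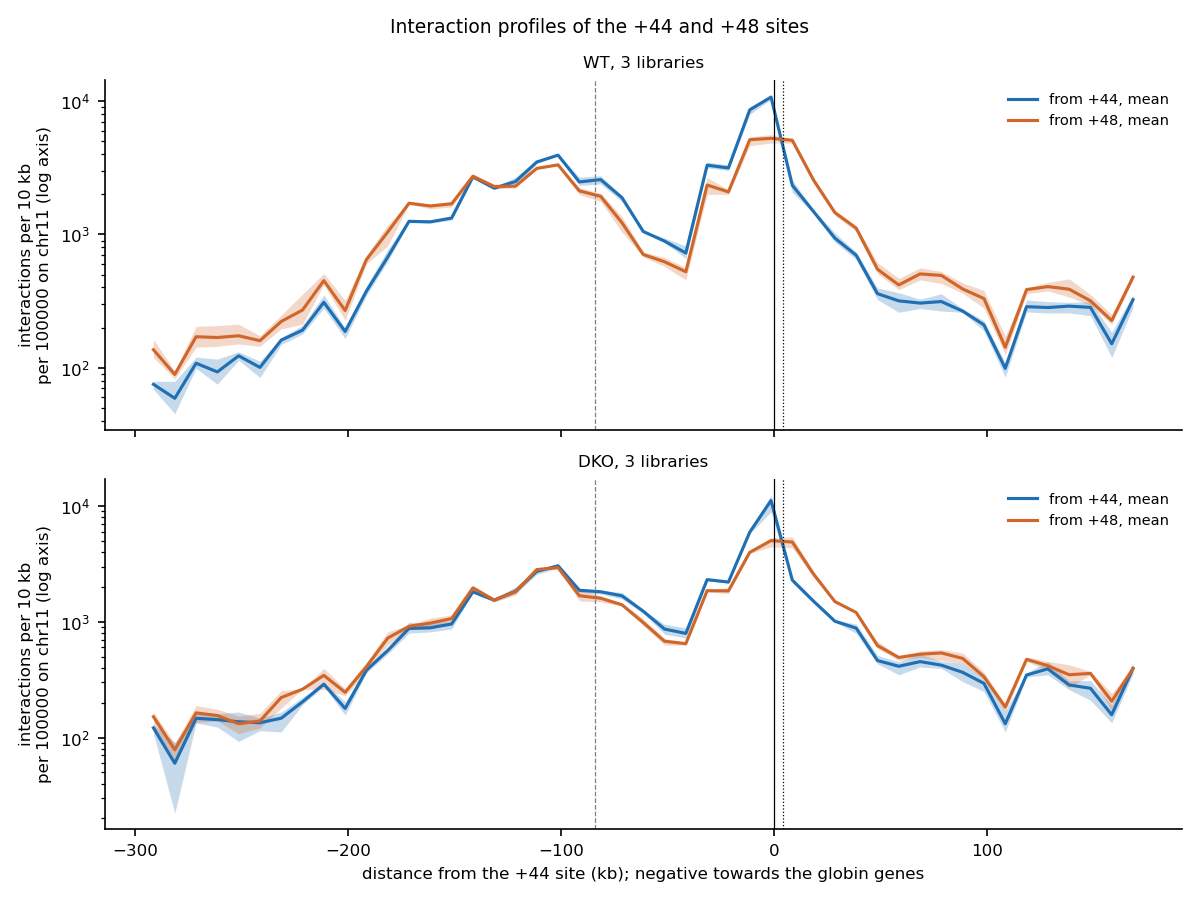
Interactions per 10 kb and per 100000 on chr11 (log axis) against distance from +44 in kb, with lines for the mean of 3 libraries and bands for their range, WT above and DKO below, with vertical lines at the HS39.5 site (dashed), +44 (solid) and +48 (dotted). The curves peak near the sites and again about 101 kb away, and in WT they cross in the upstream flank.

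**Figure D3:**
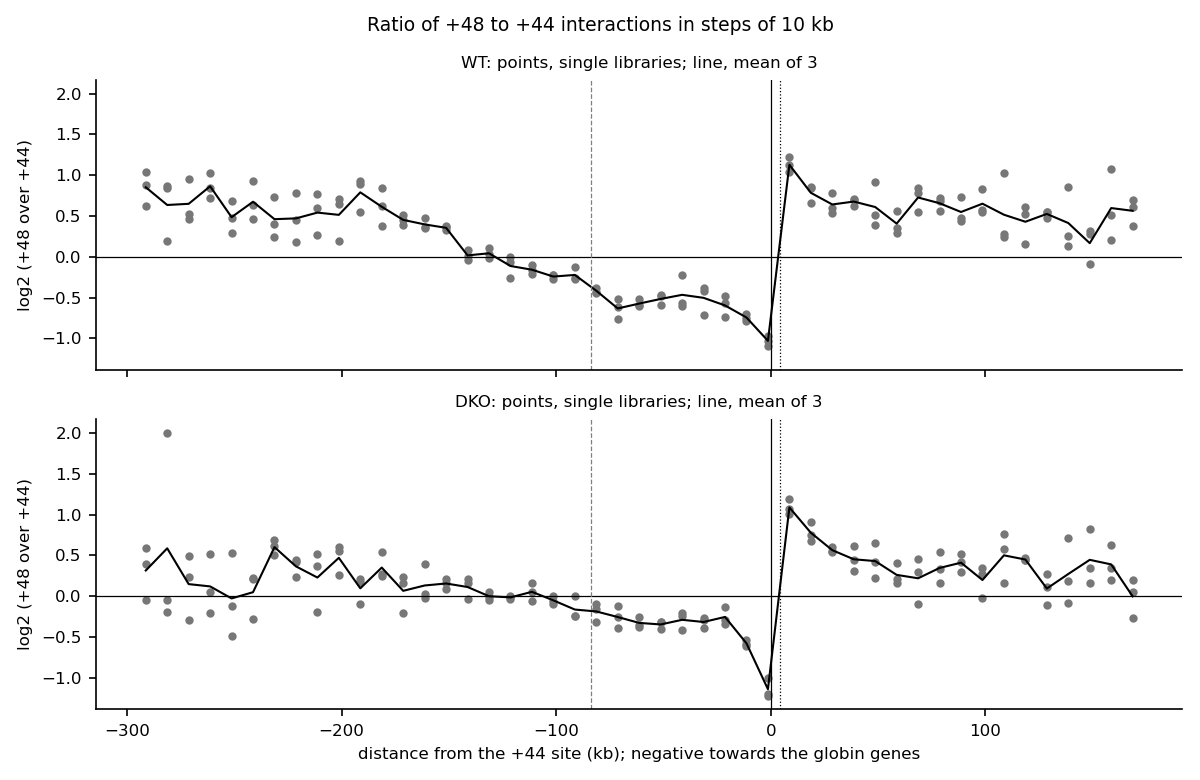
Log2 ratio of +48 over +44 in steps of 10 kb against distance from +44 in kb, with points for single libraries and a line for their mean, and the HS39.5 site dashed. In WT the line is at −1.03 and 1.13 in the steps on either side of the sites, below 0 through the domain, and at 0.45 in the step 171 kb upstream.

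Around the HS39.5 site the +44 site was again the stronger partner. The 26 fragments within 5 kb, chr11:32131944-32142085, which span exons and introns of Nprl3 and the end of Mpg, a DNA repair glycosylase gene, took 2.57%, 2.63% and 2.82% from +44 in WT and 2.08%, 1.96% and 2.05% in DKO. From +48 they took 2.02%, 2.16% and 2.24% in WT and 1.80%, 1.77% and 1.78% in DKO. The sites did not overlap in either genotype. The log2 ratio was −0.32 ± 0.04 (SD, n = 3) in WT and −0.19 ± 0.04 in DKO, with a mean of −0.25 and 0 of 6 above 0 (exact permutation test, n = 6, adjusted p = 0.0417). It was −0.14 when scaled to the region. With only the interval read from +48 moved by the 4491.5 bp between the sites it was −0.44. The moved interval lay almost wholly in the domain and was not centred on the HS39.5 site, so that this value compares different DNA. Per kb, over fragments outside 1 kb of the panel's other viewpoints, the WT levels were 345 ± 19.4 (SD, n = 3) interactions per 100000 from +44 and 280 ± 14.7 from +48 here, against 206 ± 7.02 and 143 ± 15.8 in the domain and 287 ± 4.43 and 264 ± 3.07 in the upstream flank. From the HS39.5 site itself, 1.95% ± 0.11 of chr11 interactions fell in the 5 kb before +44 in WT and 1.38% ± 0.06 in DKO, which did not overlap (log2 −0.50, exact permutation test, 3 against 3, p = 0.1, the smallest possible). In the 5 kb after +48 it had 0.459% ± 0.055 and 0.408% ± 0.005 (p = 0.4 in the same exact test). It was listed with 0 reads on both viewpoint fragments.

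Within the domain both sites had the same 3 leading fragments, 2 in Hbq1a and 1 in Hbq1b, the θ-globin genes. The fragment chr11:32200138-32200469 in Hbq1a had 509, 453 and 462 interactions per 100000 from +44 in WT and 278, 232 and 263 in DKO. From +48 it had 182, 273 and 287 in WT and 241, 184 and 211 in DKO. All WT values from +44 exceeded all the others. The fragment chr11:32187033-32187364 in Hbq1b had 412, 425 and 404 from +44 in WT and 156, 239 and 279 from +48, again without overlap. These 2 coding fragments of 332 bp are identical at 327 bases (98.5%), so that their reads may be split uncertainly between the genes. Each held 1 match to the CTCF motif, on the plus strand, and 2.43% of windows of this length held one. The 30 bases around it are shown because both copies read the same.
Hbq1b, chr11:32187278-32187307: agcccatgcCCAAAAGGTGGCcgatgcact
Hbq1a, chr11:32200383-32200412: agcccatgcCCAAAAGGTGGCcgatgcact
The 2 fragments of each of Hba-a1 and Hba-a2, the adult α-globin genes, that match between the copies (100% and 99.5%) were listed at 0, as was the rest of both gene bodies, and no value was drawn from them.

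Of the 3 leading fragments of each site, 1 was common to both far upstream, 2 in the upstream flank and 1 far downstream. The upstream flank fragment chr11:32116430-32116743 in an exon of Rhbdf1 led from both sites, with 247, 298 and 257 interactions per 100000 from +44 and 207, 242 and 199 from +48 in WT. In DKO it had 190, 138 and 141 and 148, 171 and 93.1. The downstream flank had 0 of 3 leading fragments in common. From +48 its leading fragment was chr11:32228631-32230057, which holds the first motif match after that site, with 827, 986 and 994 in WT against 361, 442 and 439 from +44. From +44 it was chr11:32218902-32219377, with 1041, 1235 and 1243 against 376, 508 and 462 from +48. Each leading fragment was the nearer to its own site. These ranks, here and in the domain, take no account of fragment length. The leading fragment from +48 was 1427 bp long, with a WT mean of 936. The second, chr11:32222793-32222954 between the sites, was 162 bp long, with 765 from +48.

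The R1, R2 and E fragments, in or beside the enhancers, had more interactions from +44 than from +48 in every WT library. R1 had 155, 168 and 152 interactions per 100000 from +44 and 84.5, 100 and 111 from +48, without overlap. In DKO it had 69.7, 58.4 and 48.6 from +48, which overlapped its values from +44. R2 had 81.6, 102 and 123 from +44 and 57.8, 69.1 and 56.8 from +48. The E fragment beside R2, in an exon of Nprl3, had 81.6, 140 and 155 and 44.5, 81.6 and 85.2, which overlapped between libraries although +44 was higher within each. In DKO the E fragment had 66.9, 35.7 and 40.7 from +44 and 56.2, 58.4 and 68.8 from +48, so that the sites interleaved there. The A fragment, in the intergenic stretch 16.0 kb before +44, had 298, 249 and 325 from +44 and 202, 160 and 225 from +48 in WT. In DKO it had 140, 147 and 155 and 148, 108 and 85.0, below every WT value of the same site. On the far side the C fragment, in an intron of Sh3pxd2b, had 27.2 ± 3.42 from +44 and 43.7 ± 7.51 from +48 in WT (SD, n = 3), and 44.5 ± 4.01 and 39.6 ± 14.9 in DKO.

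Genes were measured over all members that touch them, per kb of those fragments. The 3.615 kb of fragments of Hbq1a reach well beyond the gene. Nsg2 and Ubtd2 were cut at the ends of the region, and Mpg shares its fragments with Nprl3. By this measure +48 was the lower site in all 3 WT libraries for 6 of the 11 protein-coding genes with reads, and the higher one for 3. The lower ones were Rhbdf1, Nprl3, Mpg, Hba-x, the embryonic ζ-globin gene, Hbq1b and Hbq1a. Nprl3 had 180, 196 and 191 interactions per kb from +44 and 129, 148 and 147 from +48 in WT, a log2 ratio of −0.42 ± 0.05 (SD, n = 3), and of −0.21 ± 0.04 in DKO. Hbq1a had a ratio of −0.70 ± 0.35 in WT, of which WT replicate 1 gave the lowest value from +48 (164, against 238 and 219). Of the domain genes with reads Hba-x had the lowest level, 97.0 ± 10.2 from +44 and 75.5 ± 9.43 from +48 in WT (SD, n = 3). The higher ones were Sh3pxd2b (38.3 ± 1.88 from +44 and 58.9 ± 2.34 from +48), Ubtd2 and Nsg2, a neuronal vesicle protein gene. Il9r and Snrnp25 had ratios of −0.01 ± 0.05 and −0.12 ± 0.15, within their spread. The ratio of Rhbdf1 was −0.22 ± 0.02 in WT and 0.00 ± 0.09 in DKO. Those of Nprl3, Hbq1a, Sh3pxd2b, Ubtd2, Nsg2 and Rhbdf1 were nearer to 0 in DKO without overlap with WT (exact permutation test, 3 against 3, p = 0.1 each, the smallest possible). Genes outside the region were not measured, so that these counts of genes have no share over chr11 beside them and describe the listed genes only.

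**Figure D4:**
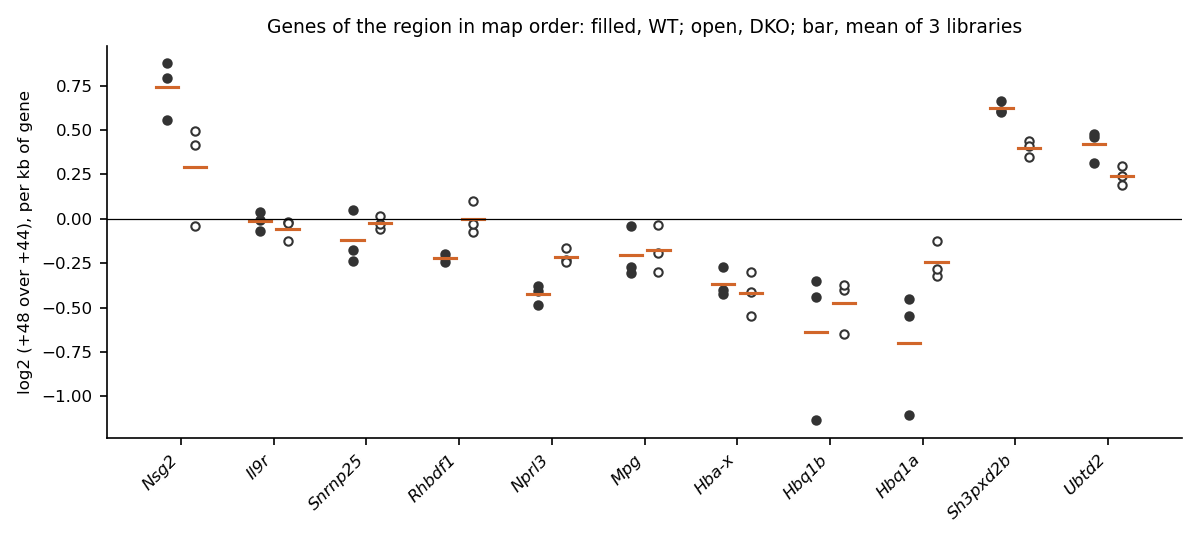
Log2 ratio of +48 over +44 per kb of the fragments that touch each gene, for the 11 genes with reads in map order, with filled points for WT libraries, open points for DKO and bars for the mean of 3. Sh3pxd2b and Ubtd2 on the far side of the sites lie above 0 in all 6 libraries, and Nprl3, Hba-x and the Hbq genes lie below 0 in all 6.

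The balance of the 2 sides of each site was compared next. From 5 to 150 kb, the log2 ratio of interactions on the gene side to those on the far side was 2.32 ± 0.06 (SD, n = 3) from +44 and 1.497 ± 0.08 from +48 in WT. In DKO it was 1.75 ± 0.05 and 1.20 ± 0.04. Both sites thus had more reads towards the genes in every library, and +48 had less of this bias, with a difference of −0.69 over the 6 libraries (0 of 6 above 0, exact permutation test, n = 6, p = 0.03125). Leaving out fragments within 1 kb of either site cut these windows unequally. On the far side the +44 window lost its part before chr11:32228631, beside +48, and the +48 window lost none. On the gene side the +48 window lost its part after chr11:32219590, beside +44, and the +44 window lost none. Both losses act in the direction of the difference, and their size was not tested. The difference of DKO from WT was −0.57 from +44 and −0.29 from +48, each without overlap (exact permutation test, 3 against 3, p = 0.1). Windows set at equal distance from each site, rather than at the same place, gave a like order on the far side, where +48 was higher in all 3 WT libraries in 14 of 17 steps (25.7% of such steps over chr11) and lower in 0 (10.0%), and in DKO in 12 (24.0%) and 2 (9.29%). On the gene side they gave a mixed one, with 6 steps higher (26.7%) and 9 lower (9.17%) in WT and 7 (24.2%) and 9 (11.9%) in DKO. These windows cover different DNA for each site, so that 1 peak can fall in different steps. Hbq1b lies 34.1 kb before +44 and 4491.5 bp farther from +48. In WT, 25 to 35 kb held 2962 from +44 and 1488 from +48 (means), and 35 to 45 kb 899 and 1810. The step counts thus do not show which site meets the genes more at equal distance. The nearest step of +44 on the far side and of +48 on the gene side was also cut as above. With only the domain interval read from +48 moved by the 4491.5 bp between the sites, the share was still lower from +48 (log2 −0.36, exact permutation test, 0.0417 after adjustment). The 2 sites were then read over different DNA.

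In the main test across chr11, limma on log2(value + 1) in 2 kb bins with Benjamini-Hochberg adjustment, 0 of 608 bins passed between the sites in WT or in DKO, and 0 for the difference between genotypes (0% over chr11 in each). Unadjusted p-values under 0.05 were found in 76, 31 and 14 of the 232 bins of the region, and the smallest adjusted p was 0.0574, 0.0878 and 0.723. The share of such unadjusted values over chr11 was not computed, and 14 of 232 is near what this threshold lets through without a difference. Tests on the recovered counts made calls at an adjusted p under 0.05. edgeR's quasi-likelihood test called 53 bins of the region higher and 37 lower from +48 in WT (10.0% and 6.09% of all bins tested), and 12 and 14 in DKO (1.97% and 2.47%). For the difference between genotypes it called 1 bin, lower in DKO (0.164%). The direction of the split depended on the scale: with TMM factors edgeR called 28 bins of the region higher and 53 lower in WT. Over chr11 it then called 85 of 608 in either direction. The median log2 ratio over the region's bins went from 0.36 on chr11 reads to 0.19 with TMM and 0.12 with DESeq2's size factors.

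By edgeR, 22 of the 37 lower bins in WT lay in the domain, 10 in the downstream flank and 5 in the upstream flank. The 53 higher bins lay far upstream (22), in the downstream flank (17) and far downstream (14). In DKO the 12 higher bins were all in the downstream flank, and the lower ones were 9 in that flank and 5 in the domain. The clearest higher bin, chr11:32231000-32232999 beyond +48, had 680, 772 and 784 interactions per 100000 from +44 and 1737, 1777 and 1768 from +48 in WT, a limma log2 ratio of 1.24 ± 0.18 (SE). The clearest lower bin, chr11:32219000-32220999 just before +44, had 2454, 2713 and 2746 and 845, 1111 and 1061, a ratio of −1.40 ± 0.19. Both are intergenic and lie beside a viewpoint. In all 3 WT libraries 30 of the 31 domain bins were higher from +44, and 45 of 72 far upstream and 41 of 68 far downstream bins were higher from +48 (13.5% and 33.2% over chr11). In DKO 18 of the 31 domain bins were higher from +44 (10.7% over chr11). From +48, 31 of 68 far downstream bins were higher (25.7% over chr11). The 18 of 72 far upstream bins higher from +48 in DKO were near that chr11 share.

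The second question was how the enhancer deletion bears on each site. Shares of 3 DKO and 3 WT libraries were set against each other by exact permutation (two-sided), which cannot go below p = 0.1, so that none could pass 0.05, and the smallest adjusted p obtained over the 8 comparisons was 0.16. The whole region took a smaller share of chr11 in DKO, with a log2 ratio of −0.22 from +44 and −0.19 from +48, each without overlap, so that each ratio is also given scaled to the reads of the region. From +44 the domain share in DKO was below that in WT in every library, with a log2 ratio of −0.30 ± 0.03 (SE) on chr11 reads and −0.07 on those of the region. From +48 the genotypes overlapped and the ratio was −0.03 ± 0.10 (exact permutation p = 0.9), turning to 0.16 when scaled to the region. That overlap rested on WT replicate 1. Without that library the ratio was −0.13 with no overlap (exact permutation p = 0.1), whereas without WT replicate 2 it was 0.02. These domain shares keep the R1 and R2 fragments, and R2 had no reads in any DKO library. On the scale used above, R2 averaged 102 from +44 and 61.2 from +48 in WT. R1 averaged 158 and 98.7 in WT against 71.1 and 58.9 in DKO. The domain ratios thus include these losses, and the domain without these fragments was not tested.

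In the upstream flank both sites had lower values in DKO without overlap, −0.43 ± 0.03 (log2, SE) from +44 and −0.33 ± 0.02 from +48, or −0.21 and −0.13 scaled to the region. Around the HS39.5 site the ratios were −0.39 ± 0.05 and −0.26 ± 0.04, also without overlap. Scaled to the region they were −0.17 and −0.06, and from +48 the genotypes then overlapped (exact permutation p = 0.2), as they did with values as deposited (−0.22, p = 0.2 in the same exact test). In the downstream flank the genotypes overlapped from both sites, with −0.15 ± 0.09 and −0.11 ± 0.07 (exact permutation p = 0.2). With 5 kb left out around the sites they were apart, at −0.30 and −0.15, and scaled to the region both turned, to 0.07 and 0.08. The far upstream ratio was −0.26 ± 0.02 from +44 and −0.55 ± 0.06 from +48, or −0.04 (with overlap) and −0.36 scaled to the region. The far downstream one was 0.32 ± 0.07 and 0.09 ± 0.04, without overlap from +44 only, and 0.55 and 0.29, both without overlap, scaled to the region.

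In most intervals the ratio of the sites lay nearer to 0 in DKO than in WT. For the domain the log2 ratio of +48 over +44 was 0.26 higher in DKO than in WT, for the HS39.5 neighbourhood 0.14 and for the upstream flank 0.10, in each case without overlap (exact permutation test, 3 against 3, p = 0.1, 0.133 after adjustment over 4 intervals). For the downstream flank it was 0.04 (p = 0.2 in the same exact test). The value for the domain includes the R1 and R2 fragments, as above. Far upstream and far downstream, where +48 was the higher site, the ratio differed between DKO and WT by −0.29 and −0.23 (exact permutation p = 0.1). In the stretches next to the sites it differed by −0.01 and −0.07 (exact permutation p = 0.8 and 0.4). Over the 608 bins of 2 kb tested on chr11 the median difference of this ratio, DKO against WT, was −0.11. A lower ratio in DKO was thus not particular to the far intervals.

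**Figure D5:**
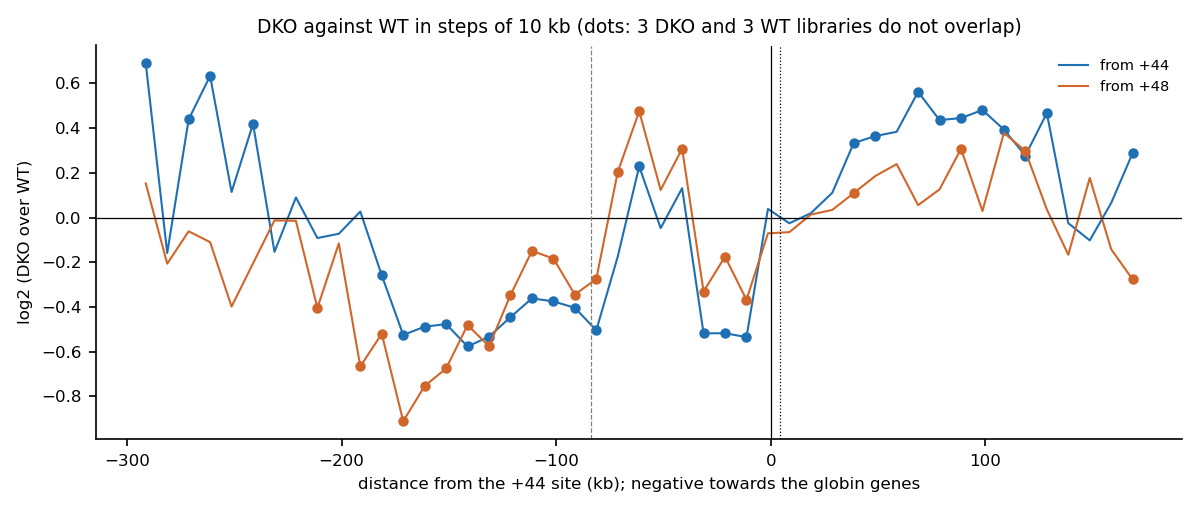
Log2 ratio of DKO over WT in steps of 10 kb against distance from +44 in kb, in blue from +44 and in orange from +48, with dots where the 3 DKO and 3 WT libraries do not overlap. In the step 171 kb upstream the ratio is −0.52 from +44 and −0.91 from +48, and in the step 61 kb upstream, in the domain, it is 0.23 and 0.48.

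Step by step, all DKO libraries lay below all WT libraries in 14 of 47 steps from +44 and 17 from +48 (4.87% and 5.12% over chr11), and above them in 15 and 6 (17.7% and 15.5%). All 6 steps of the upstream flank were below from both sites. In the domain 3 of 7 steps were below from each site, and 1 was above from +44 and 3 from +48. The step chr11:32045000-32054999, far upstream, had 1744, 1711 and 1688 interactions per 100000 from +48 in WT and 940, 862 and 935 in DKO. From +44 it had 1226, 1249 and 1287 in WT and 798, 991 and 836 in DKO. Both sites were lower there in DKO, and the sites, apart in WT, overlapped in DKO.

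In 2 kb bins limma called 0 of 596 bins from +44 and 0 of 638 from +48 between DKO and WT (0% over chr11). Its unadjusted p was under 0.05 in 37 of 230 and 34 of 232 bins of the region, and the share over chr11 was not computed. edgeR called 47 lower and 4 higher in the region from +44 (7.89% and 1.68% over chr11), and 30 and 6 from +48 (4.86% and 1.72%). From +44, 21 of the 47 lay in the upstream flank, 10 in the domain and 9 far upstream. From +48, 16 of the 30 lay far upstream, 11 in the upstream flank and 1 in the domain. From +44 the bin chr11:32081000-32082999 in the upstream flank had 992, 1014 and 950 in WT and 598, 558 and 544 in DKO. From +48 the bin chr11:32047000-32048999 had 365, 455 and 400 in WT and 205, 139 and 190 in DKO. The bin chr11:32153000-32154999, in Nprl3 just after the R2 fragment, was higher in DKO from both sites, with 234, 253 and 211 in WT and 352, 402 and 333.1 in DKO from +44, and 187, 179 and 199 against 348, 270 and 247 from +48. By non-overlap of the genotypes, 24 and 23 of the 32 upstream flank bins were below WT in DKO from +44 and +48 (11.6% over chr11 from each).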

How the data were processed

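NG Capture-C libraries were read for the CTCF_44 and CTCF_48 viewpoints in 6 samples (3 WT, 3 DKO) of the 39 in the series, and the HS39.5 viewpoint of the same libraries was used for the reciprocal view. The authors trimmed reads with Trim Galore, mapped them to mm9 with Bowtie, counted reporter reads per DpnII fragment with their own scripts and deposited values close to RPM in kind, scaled to 100000 reporter reads of each viewpoint (tool versions are not given in the sources used here). Values were whole multiples of 1 read in 100% of cases within 0.01 of a read, so that whole reads were recovered. Duplicate filters of the authors could not be repeated. The floor of 3 reads covers counting error only, whereas each ± is an SD or SE between libraries.

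Fragments within 1 kb of +44 or +48 were left out, and values were scaled to 100000 remaining chr11 reads. The region was chr11:31925000-32400000, the domain chr11:32137046-32200781 with flanks of 63.736 kb, all by fragment midpoint. Shares were compared on the log2 scale by two-sided exact permutation tests, by sign flips of library differences between sites and by the 20 arrangements of 3 against 3 between genotypes. Bins (2 kb, mean of 10 or more per 100000) were tested over all of chr11 with limma 3.58.1 on log2(value + 1), with library as a term between sites, and Benjamini-Hochberg adjustment at 0.05. DESeq2 1.42.0, which the authors' methods name, and edgeR 4.0.16 were run on the recovered counts as alternatives, with R 4.3.3. Other pseudocounts, filters, bin sizes, scalings, exclusions and left-out replicates were also tried. Statistics were tested on counts simulated for +48 against +44 in WT, with the spread estimated by edgeR. Of changes set in bins of the region, limma recovered 0% at 1.5-fold and 50.6% at 2-fold. edgeR recovered 53.3% and 87.0%. That limma called 0 bins therefore does not show that the values were equal. Fold changes on the log2(value + 1) scale understate changes of low bins. Genes came from GENCODE vM1 and sequence from the reference of the same build.

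Members, intervals, named fragments (those of the labels and the 3 highest per site and interval in WT) and named bins (the 3 smallest adjusted p per test and direction, of which a few are given) were chosen with earlier results of these data known. The step over Rhbdf1 and the step 171 kb upstream were chosen after their values were seen. Replicates of 1 site and genotype varied beyond counting error: over 12 pairs, chi-square divided by its degrees of freedom was 1.30 to 1.82.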

Additional observations from a re-analysis of the deposited data

Results flagged for a closer look

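In the whole comparison 1 bin stood out because the difference between the sites itself differed between genotypes. In chr11:32033000-32034999, far upstream and intergenic, +48 had 251, 267 and 256 interactions per 100000 in WT and 128, 144 and 105 in DKO, whereas +44 had 148, 112 and 114 in WT and 129, 112 and 163 in DKO. The sites did not overlap in WT and overlapped in DKO. The log2 ratio of +48 over +44 in DKO differed from that in WT by −1.11 in edgeR's quasi-likelihood test (Benjamini-Hochberg adjusted p = 0.0124), 1 of 608 bins tested. limma on log2 values called 0 bins in this test. Its 14 of 232 bins of the region at an unadjusted p under 0.05 are near what that threshold lets through without a difference. The part of depth or of 1 library in this difference was not tested.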

How the results depend on the processing

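Which bins are called depended on how the spread was modelled. limma called 0 in 5 tests: in WT, in DKO, for the difference between genotypes, and for DKO against WT from +44 and from +48. In that order 608, 608, 608, 596 and 638 bins were tested over chr11. edgeR with chr11 reads as library size called 90, 26, 1, 51 and 36 bins of the region (98, 27, 1, 57 and 42 over chr11). With TMM factors it called 81, 28, 3, 54 and 34 (85, 29, 3, 60 and 39 over chr11). DESeq2 called 62, 23, 0, 42 and 30, and no other bins of chr11. limma with a trend of the spread, added after seeing the data, called 79, 24, 0, 45 and 32 (86, 25, 0, 47 and 35 over chr11). With no filter, in the region only, limma called 70, 11, 0, 10 and 10 of 234 bins, and no bins outside the region were tested. In WT and DKO a pseudocount of 5 gave 6 and 2 in the region (7 and 2 of 608 over chr11). A mean of at least 20 gave 9 and 6 (9 and 6 of 424), and values as deposited gave 6 and 2 (8 and 2 of 530). Single fragments gave 1 call from each site between genotypes (1 of 907 fragments tested over chr11 from +44 and 1 of 1070 from +48). Bins of 5 kb, 5 kb left out around the sites, the panel's viewpoints left out, and each replicate left out in turn gave 0 in the region in all 5 tests. Outside the region, DKO against WT from +44 had 3 calls without WT replicate 1 and 2 without DKO replicate 1, of 596 bins over chr11. The causes were not tested.

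For shares, the upstream flank passed the threshold between sites with 5 kb left out (−0.13) and with values as deposited (−0.10), and turned to 0.050 scaled to the region. The ratio of DKO to WT in the domain from +48 turned to 0.0037 with values as deposited, 0.16 scaled to the region, 0.023 without WT replicate 2 and 0.0041 without WT replicate 3 (range −0.13 to 0.023 without each library). That in the downstream flank turned to 0.074 from +44 and 0.082 from +48, and that between domain and +44 to 0.0072 from +44, all scaled to the region. Beyond +48, from +48, it turned to 0.015 with 5 kb left out, 0.029 as deposited, 0.19 scaled to the region, 0.00074 without WT replicate 3 and 0.041 without DKO replicate 1 (range −0.046 to 0.041 without each library). Without each library in turn the site ratios kept their sign at −0.44 to −0.35 in the domain, −0.28 to −0.26 in the downstream flank and −0.27 to −0.23 around HS39.5, and missed the threshold because 5 libraries cannot go below 0.0625.

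WT and DKO share replicate numbers. Deviations of same-numbered libraries correlated at −0.22 to 0.06 over 6 pairs, which count each replicate number once per site, 0 of them over 0.1. In 2 of these 6 the WT library correlated best with the DKO library of its own number. With so few libraries, these values do not decide whether the numbers pair them. With the replicate block limma called 0 bins from +44 and 0 from +48, and for shares 3 pairs cannot go below p = 0.25 in the exact test. With no replicate block, which treats both columns of a library as unpaired, limma called 12 bins of the region in WT and 8 in DKO. Over chr11 these were 14 and 9 of 608 bins. The HS39.5 ratio of −0.25 then missed the threshold.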
